A study of Homo sapiens with 6 samples.

Results

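A set of 10 genes of the unfolded protein response were followed in RNA-seq libraries of human cells that overexpressed an inactive form of DIS3L2. The members were HSPA5, HSP90B1, CALR, DNAJB9, HERPUD1, SEL1L, XBP1, ATF4, ATF3 and DDIT3, chosen by symbol, and the level of a gene was the sum of RPKM (reads scaled by transcript length and by library size) over all transcripts listed for its Ensembl gene. These 10 genes were listed with 74 transcripts, among 63190 genes and 207167 transcripts in the table. DIS3L2 is a 3′-to-5′ exonuclease of the cytoplasm that degrades RNAs carrying an untemplated tail of uridines. The D391N substitution removes its catalytic activity but leaves RNA binding. In all, 3 libraries came from HEK293T-Rex cells (a line derived from human embryonic kidney, given only as HEK293 in the labels) that overexpressed DIS3L2 D391N as a stably integrated, doxycycline-inducible and Flag-tagged construct, and 3 libraries came from control HEK293T-Rex cells. Each group was 1 cell line, so an effect of the mutant protein and a difference between the lines cannot be told apart, and nothing in the sources stated whether the control cells received doxycycline or whether replicates were separate cultures. The p-values therefore measured only the spread between these libraries, which may be technical.

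The unfolded protein response is set off when misfolded proteins gather in the endoplasmic reticulum (ER). It is started by 3 membrane sensors: ATF6 is cut to release a transcription factor, ERN1 (IRE1) removes a short stretch from XBP1 mRNA so that it encodes an active transcription factor, and EIF2AK3 (PERK) phosphorylates eIF2α, which lowers general translation while translation of ATF4 rises. The ATF6 and XBP1 branches raise ER chaperones and the machinery of ER-associated degradation, and the ATF4 branch raises genes of amino acid supply, ATF3 and DDIT3 (CHOP). The ATF4 branch can also be set off outside the ER by other eIF2α kinases, and is then called the integrated stress response (ISR).

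DIS3L2 itself had levels of 369, 467 and 512 RPKM in the D391N libraries against 11.8, 12.9 and 14.6 RPKM in the controls; here and below, library values are given in the order of replicates 1, 2 and 3. The D391N libraries were all far above the controls, as their labels state, with a log2 fold change of 5.08 on log2(RPKM + 0.1) and a Benjamini-Hochberg adjusted p of 0.000268 by limma (linear model with empirical Bayes). The two-sided exact permutation test gave p = 0.1, the smallest that 3 libraries against 3 allow. The libraries were not alike in make-up: transcripts of protein-coding genes held 41.8, 76.4 and 59.5% of the summed RPKM in D391N replicates 1 to 3 and between 40.1 and 42.9% in the controls. Correlations of log2 levels between libraries were 0.885 to 0.935 within D391N, 0.959 to 0.977 within the controls and 0.824 to 0.956 between the groups, so that D391N libraries were not always closer to each other than to a control. D391N replicate 1 was thus near the controls in make-up, and its value is given below wherever a result rests on it. Of the markers chosen for HEK293, 7 of 8 passed the filter of a mean of 1 RPKM, 3 of them below all controls in D391N and 1 above (KRT8 was between 98.6 and 180 RPKM, VIM between 110 and 177). Of 8 markers of other cell types, 7 were in the table and 4 passed the filter, with no group separate from the other: the epithelial marker EPCAM was between 83.4 and 151 RPKM, the erythroid marker HBB between 2.14 and 7.12, the fibroblast marker COL1A1 between 2.03 and 4.05 and the leukocyte marker PTPRC between 1.34 and 1.77. These markers were chosen as genes that should lie near 0, and EPCAM, whose levels overlapped those of KRT8, did not. Read counts were not part of the table, so the depth behind each value is unknown.

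The promoters of the members are shown first because the response reaches many of its targets through 1 element, the ER stress response element (ERSE, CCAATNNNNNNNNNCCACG), whose CCAAT end is bound by NF-Y and whose CCACG end is bound by ATF6 or XBP1. All 10 members were matched to RefSeq start-site windows (GRCh38.p14, 250 bases before to 50 after the start, 14 windows), searched on both strands. A match was found in 4 members (HSPA5, HSP90B1, CALR and XBP1) and in 4 of the 14 windows. Over all genes, these members included, a match was found in 27 of 35116 windows, or 0.0769%. The stretches that hold it follow, 5′ to 3′ on the strand of the gene, with both ends of the element in capitals; on the opposite strand they read CGTGG and ATTGG.
HSPA5, chr9:125241376-125241424, minus strand: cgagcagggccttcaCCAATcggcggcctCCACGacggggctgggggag
HSP90B1, chr12:103930201-103930354, plus strand: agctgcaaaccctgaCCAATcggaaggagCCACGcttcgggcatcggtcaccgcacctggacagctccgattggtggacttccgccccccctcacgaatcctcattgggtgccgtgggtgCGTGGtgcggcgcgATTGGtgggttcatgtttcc
CALR, chr19:12938369-12938417, plus strand: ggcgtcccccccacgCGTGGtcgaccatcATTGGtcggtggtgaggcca
XBP1, chr22:28800588-28800636, minus strand: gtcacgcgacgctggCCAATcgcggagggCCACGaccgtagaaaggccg

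HSP90B1 held 2 such elements, 1 on each strand, and HSPA5, CALR and XBP1 held 1 each. The element lay between bases -66 and -48 from the start site in HSPA5 and between -52 and -34 in XBP1, both on the strand of the gene, and between -225 and -207 in CALR on the opposite strand. The ends alone are common: CCAAT matched 34.6% of all windows and CCACG matched 38.1%, and these matches include those inside an ERSE. The core of the amino acid response element through which ATF4 acts, TGATGNAA, matched 3.62% of all windows and those of 2 members, ATF3 and HERPUD1. A match is a match of letters and no measurement of binding.

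**Figure D1:**
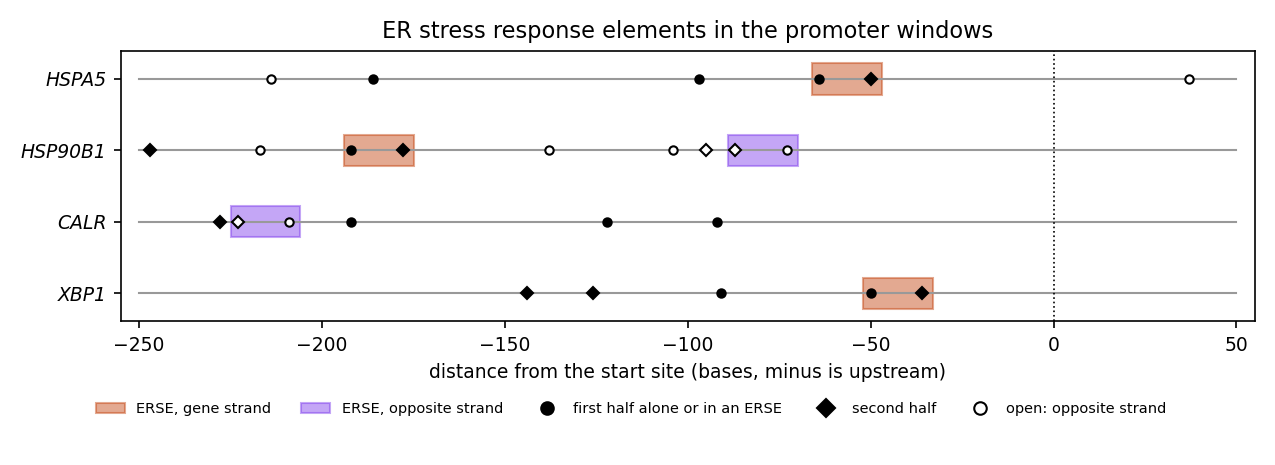
Positions of the ERSE matches in the windows of the 4 members that held one, in bases from the RefSeq start site (dotted line). Boxes are whole elements, circles and diamonds their CCAAT and CCACG ends, and open symbols lie on the opposite strand; HSPA5 and XBP1 carry the element closest to the start, HSP90B1 carries 2 and CALR carries it farthest upstream.

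All 10 members passed the filter of a mean of 1 RPKM, and none was called at a Benjamini-Hochberg adjusted p under 0.05 by limma. Over all genes, 29 of 20714 genes were called, or 0.14%, of which 1 was higher in D391N (0.00483%, DIS3L2) and 28 were lower (0.135%). At an unadjusted p under 0.05, 2 members were higher (HSPA5 and CALR) and 1 was lower (ATF4), beside 6.76% of all genes higher and 16% lower. Every D391N library lay above every control in 3 members (HSPA5, CALR, DNAJB9) and below every control in 2 (XBP1, ATF4), beside 10.5% and 20.7% of all genes. The libraries of the other 5 members overlapped. The median log2 fold change of the members was 0.040, of all genes tested -0.090 and of protein-coding genes tested -0.053, and single members ranged from -0.63 (ATF4) to 0.83 (HSPA5). The members did not share 1 direction: of the 10, the chaperones HSPA5 and CALR had the most positive values and ATF4 and DDIT3 the most negative.

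**Figure D2:**
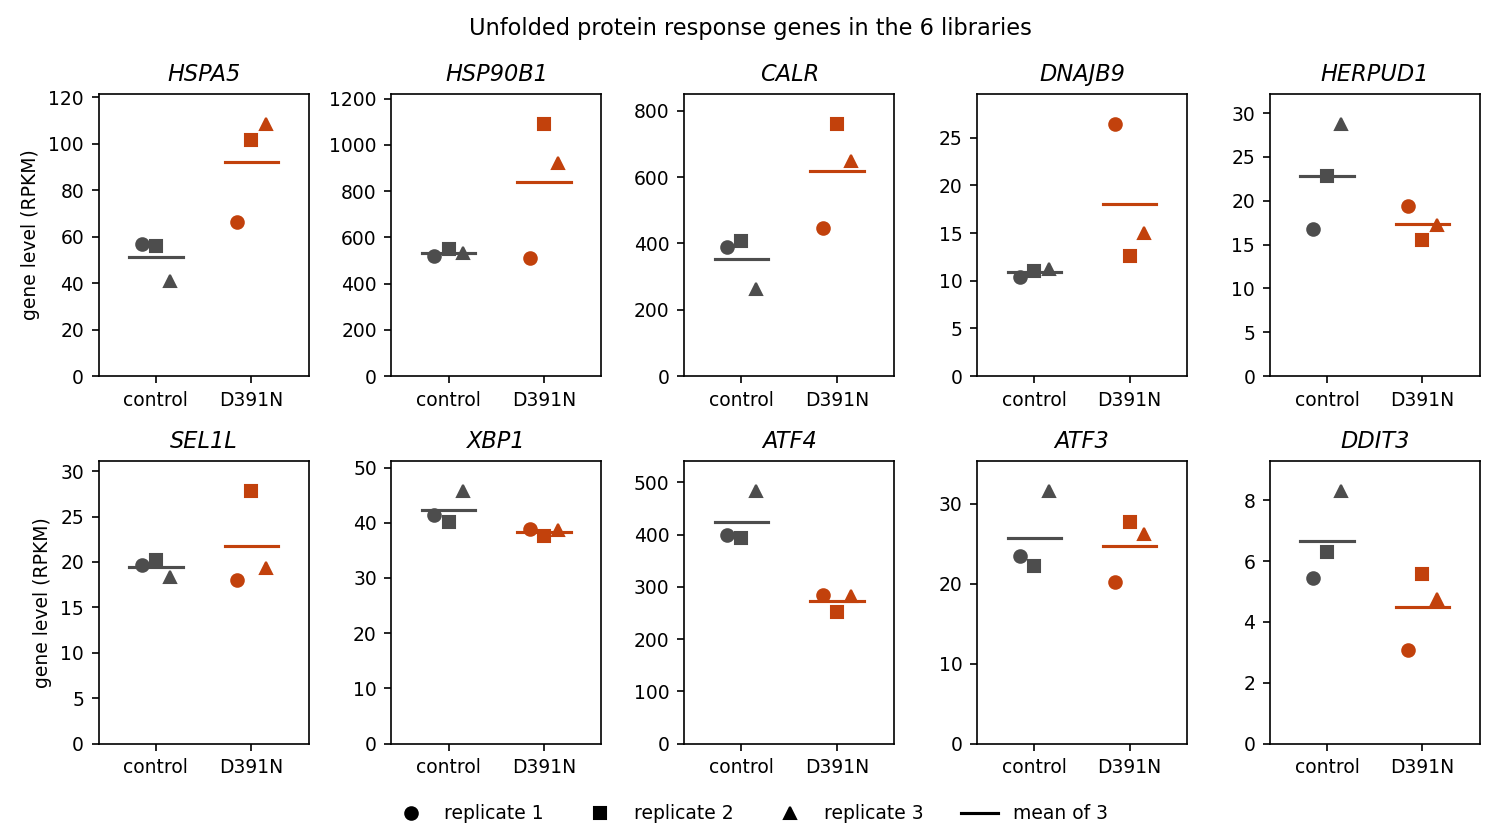
Gene level in RPKM (linear axes from 0, scaled per gene) of each member in the 3 control libraries (grey) and the 3 D391N libraries (orange), with the replicate number as the symbol and the mean as a line. HSPA5, CALR and DNAJB9 lie above all controls and ATF4 and XBP1 below, and D391N replicate 1 is the lowest D391N library in HSPA5, HSP90B1 and CALR.

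HSPA5 (BiP; chromosome 9, 125234853-125241343) is the main Hsp70 chaperone of the ER lumen, holds the sensors inactive while unfolded protein is scarce, and is the usual readout of the response. Its level was 66.2, 102 and 108 RPKM in the D391N libraries against 56.7, 55.8 and 40.8 RPKM in the controls. The groups did not overlap, but D391N replicate 1 was closer to the controls than to the other D391N libraries. The log2 fold change was 0.83 (SE 0.24, 95% interval 0.26 to 1.41) with an adjusted p of 0.133. Without D391N replicate 1 the log2 fold change was 1.05 and the gene was called (adjusted p = 0.0304), as were 2267 of 20734 genes by that fit (10.9%, and 7.6% called lower), and without control replicate 3, the lowest control, it was 0.68 (adjusted p = 0.348). The table lists a single HSPA5 transcript, ENST00000324460, so its level was not divided among isoforms.

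CALR (calreticulin; chromosome 19, 12938609-12944489) is a calcium-binding lectin chaperone that folds glycoproteins. It had 446, 761 and 647 RPKM in the D391N libraries against 389, 406 and 264 RPKM in the controls. As with HSPA5, the groups were separate, D391N replicate 1 was the lowest D391N library and control replicate 3 the lowest control. The log2 fold change was 0.80 (SE 0.29) with an adjusted p of 0.178. It was 1.02 without D391N replicate 1 (adjusted p = 0.0548) and 0.60 without control replicate 3 (adjusted p = 0.415).

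HSP90B1 (GRP94; chromosome 12, 103930410-103947926), the Hsp90 chaperone of the ER, had the highest level of all members. It had 511, 1091 and 921 RPKM in the D391N libraries against 517, 548 and 531 RPKM in the controls. D391N replicate 1 lay below all 3 controls, whereas replicates 2 and 3 lay well above them. The log2 fold change was 0.59 (SE 0.32) with an adjusted p of 0.309. Without D391N replicate 1 it was 0.91 and the gene was called (adjusted p = 0.0375), as were 10.9% of all genes by that fit (7.6% called lower). Without D391N replicate 2 it was 0.37 (adjusted p = 0.501). In all 3 chaperones the D391N library with the lowest level was the one whose share of protein-coding RNA was at the level of the controls. The part of this difference in make-up was not tested. With each library scaled to its summed protein-coding RPKM, the log2 fold changes were 0.78 for HSPA5, 0.75 for CALR and 0.54 for HSP90B1. That sum already lay between 500390 and 566007 in D391N and between 507243 and 517193 in the controls, so this scaling could change little.

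DNAJB9 (ERdj4; chromosome 7, 108569874-108574850) is an ER co-chaperone that works with HSPA5 and is a target of XBP1. It had 26.5, 12.6 and 15.02 RPKM in the D391N libraries against 10.4, 10.98 and 11.3 RPKM in the controls. All D391N libraries were above the controls, and here replicate 1 was the highest, opposite to HSPA5, CALR and HSP90B1. The log2 fold change was 0.65 (SE 0.28) with an adjusted p of 0.226, and 0.34 without D391N replicate 1. The protein-coding transcript ENST00000249356 overlapped between the groups, at 4.70, 2.64 and 4.65 RPKM in D391N against 3.80, 4.06 and 3.03 RPKM in the controls. Its log2 fold change was 0.10 (adjusted p = 0.890 by limma). ENST00000465725, without a defined coding sequence, had 17.0, 5.97 and 4.09 RPKM against 4.18, 4.01 and 6.51 RPKM. The retained-intron transcript ENST00000491582 had 4.71, 3.96 and 6.29 RPKM against 2.41, 2.91 and 1.74 RPKM.

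HERPUD1 and SEL1L act in ER-associated degradation, the route by which misfolded proteins are returned to the cytosol for the proteasome. HERPUD1 (chromosome 16, 56932142-56944864), a membrane protein that recruits the degradation machinery, had 19.4, 15.5 and 17.2 RPKM in the D391N libraries against 16.7, 22.8 and 28.8 RPKM in the controls. The groups overlapped, and the log2 fold change of -0.36 (SE 0.22) had an adjusted p of 0.373. It was -0.56 without control replicate 1 and -0.17 without control replicate 3. SEL1L (chromosome 14, 81471547-81533853), the adaptor of the ubiquitin ligase SYVN1, had 18.0, 27.8 and 19.3 RPKM in the D391N libraries against 19.6, 20.2 and 18.4 RPKM in the controls. Only D391N replicate 2 stood out, with a log2 fold change of 0.14 (SE 0.19, 95% interval -0.33 to 0.60, adjusted p = 0.711) that became -0.055 without that library and 0.26 without D391N replicate 1.

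XBP1 (chromosome 22, 28794560-28800569), the transcription factor made after IRE1 cuts its mRNA, had 38.9, 37.6 and 38.6 RPKM in the D391N libraries against 41.4, 40.1 and 45.7 RPKM in the controls. The groups were separate but close, and the log2 fold change was -0.14 (SE 0.13, 95% interval -0.45 to 0.16) with an adjusted p of 0.541. It was -0.086 without control replicate 3, and with each library centred on its median it turned to 0.077. The form of the mRNA is the more direct readout of IRE1, and the annotated transcripts differ by the excised stretch. ENST00000216037 (1850 bases, longest reading frame 261 codons) holds 26 bases that ENST00000344347 (1791 bases, longest reading frame 376 codons) lacks, and otherwise these transcripts differ in 28 bases at the 5′ end and 5 bases at the 3′ end. The stretch is shown with 25 bases on each side, the excised bases in capitals, 5′ to 3′ as in the transcript sequence of the GENCODE annotation.
XBP1 excised stretch: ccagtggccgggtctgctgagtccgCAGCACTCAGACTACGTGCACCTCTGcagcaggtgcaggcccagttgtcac

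The comparison of the transcripts allows 7 placements of these 26 bases. The one shown was picked because both of its cuts lie between G and C of CNGCAG, the pattern that IRE1 cuts. ENST00000344347, without the stretch, had 16.8, 11.6 and 16.5 RPKM in the D391N libraries against 20.7, 17.5 and 24.8 RPKM in the controls. ENST00000216037, with the stretch, had 1.43, 3.92 and 4.44 RPKM in the D391N libraries against 4.40, 3.96 and 2.30 RPKM in the controls. Within this pair, the form without the stretch was the major one in all 6 libraries, with 92.1, 74.7 and 78.8% of this pair in D391N replicates 1 to 3 and 82.5, 81.5 and 91.5% in the controls. The shares overlapped, with means of 81.9% ± 9.11 (SD, n = 3) in D391N and 85.2% ± 5.51 (SD, n = 3) in the controls, and the two-sided exact permutation test gave p = 0.6. Reads that cover the other parts of these transcripts fit both and were divided between them by the authors' model, so these shares are estimates and not counts of spliced reads. The pair also leaves out other annotated transcripts that hold the stretch. Over the 6 libraries, ENST00000484256 had 1.82 to 2.98 RPKM, ENST00000405219 had 0.89 to 2.17 RPKM and ENST00000403532 had 0.28 to 0.92 RPKM. Counting them would lower the share without the stretch in every library. ENST00000611155, with 5.37, 0.23 and 1.82 RPKM in the D391N libraries against 4.95, 8.08 and 6.27 RPKM in the controls, had no sequence in the annotation used, and its form at the stretch is unknown. Counted with the stretch, it brought the shares to 71.2, 73.6 and 72.5% in D391N and 68.9, 59.2 and 74.3% in the controls, which turned the direction of the means (exact permutation p = 0.4), and counted without it the means were 83.2% in D391N and 88.3% in the controls (exact permutation p = 0.5), so these data do not fix the direction of a difference in XBP1 form. Transcript ENST00000482720, which retains an intron, had 10.3, 18.7 and 11.2 RPKM in the D391N libraries against 5.35, 6.40 and 8.81 RPKM in the controls, all D391N libraries above the controls, with a log2 fold change of 0.94 (adjusted p = 0.232).

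ATF4 (chromosome 22, 39520559-39522686) is the transcription factor of the PERK branch and of the integrated stress response. It had 285, 251 and 282 RPKM in the D391N libraries against 398, 394 and 483 RPKM in the controls. The D391N libraries lay close together and all below the controls, D391N replicate 1 included. The log2 fold change was -0.63 (SE 0.18, 95% interval -1.06 to -0.21) with an adjusted p of 0.129. It lay between -0.69 and -0.54 when each library was left out in turn. It was -0.42 with each library centred on its median and -0.35 with quantile normalization. Since ATF4 is regulated mainly in translation, its mRNA level does not give the level of the protein.

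ATF3 and DDIT3 are transcription factors that ATF4 induces. ATF3 (chromosome 1, 212565407-212620777) had 20.2, 27.7 and 26.3 RPKM in the D391N libraries against 23.5, 22.3 and 31.6 RPKM in the controls. The libraries were mixed, and the log2 fold change was -0.055 (SE 0.20, 95% interval -0.53 to 0.42, adjusted p = 0.896), with a sign that changed in 5 of 18 alternatives. DDIT3 (CHOP, which promotes cell death when ER stress lasts; chromosome 12, 57516588-57520517) had 3.09, 5.58 and 4.77 RPKM in the D391N libraries against 5.43, 6.30 and 8.30 RPKM in the controls. D391N replicate 2 lay just above control replicate 1, and the others were lower than all controls. The log2 fold change was -0.58 (SE 0.28) with an adjusted p of 0.258, and it became -0.34 without D391N replicate 1 and -0.42 without control replicate 3.

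The order of the levels, which RPKM gives per length, differed between the groups at the top. In the controls HSP90B1 was highest at 532 ± 15.5 RPKM (SD, n = 3), followed by ATF4 at 425 ± 50.1 and CALR at 353 ± 77.7, whose libraries overlapped. In D391N, HSP90B1 at 841 ± 298 and CALR at 618 ± 160 overlapped, and ATF4 at 273 ± 18.6 RPKM ranked 3 and was separate from both neighbours. HSPA5 ranked 4 in both groups, at 51.1 ± 8.94 RPKM in the controls, where it overlapped with XBP1, and at 92.1 ± 22.6 RPKM in D391N, where it did not. XBP1 and ATF3 ranked 5 and 6 in both. HERPUD1 ranked 7 in the controls, where it overlapped with ATF3 and SEL1L, and 9 in D391N, where it overlapped with DNAJB9. DDIT3 was lowest in both groups, at 6.67 ± 1.47 RPKM in the controls and 4.48 ± 1.27 RPKM in D391N.

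The other genes of the pathway were taken as 6 lists by role, and no gene of them was called by limma. Of the 18 ER chaperones and folding enzymes, all tested, the D391N libraries lay above all controls in 4 (DNAJC10, DNAJC3, PDIA3 and UGGT1) and below in 0, beside 10.5% and 20.7% of all genes, and the median log2 fold change was 0.20. At an unadjusted p under 0.05, 1 was higher (DNAJC3) and 1 lower (SIL1), beside 6.76% and 16% of all genes. DNAJC10 (ERdj5), a co-chaperone and disulfide reductase, had 63.7, 131 and 84.0 RPKM in the D391N libraries against 62.2, 60.4 and 46.2 RPKM in the controls, with a log2 fold change of 0.67 (adjusted p = 0.221). DNAJC3 (p58IPK), a co-chaperone of HSPA5, had 19.5, 28.7 and 29.3 RPKM in the D391N libraries against 18.7, 18.7 and 16.1 RPKM in the controls, with a log2 fold change of 0.51 (adjusted p = 0.194). In both, D391N replicate 1 lay just above the highest control. The list held values on both sides of 0, those below it being SIL1 (-0.47), P4HB (-0.31), TXNDC5, PPIB and MANF, and its median was 0.32 without D391N replicate 1 and -0.0022 without control replicate 3.

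Of the 21 ATF4 and ISR targets, 20 were tested, and CHAC1, at or below 2.10 RPKM in every library, fell under the filter. The D391N libraries lay below all controls in 11 of the 20 and above in 0, beside 20.7% of all genes below, and the median log2 fold change was -0.58. At an unadjusted p under 0.05, 9 were lower and 0 higher, beside 16% and 6.76% of all genes. With D391N replicate 1 left out, 6 of the 20 were called (CEBPB, DDIT4, SHMT2, SLC3A2, SLC7A5 and TRIB3), all lower, beside 7.6% of all genes called lower by that fit. SLC7A5, a transporter of large neutral amino acids, had 2.17, 1.55 and 1.93 RPKM in the D391N libraries against 3.50, 3.56 and 4.45 RPKM in the controls, with a log2 fold change of -0.99 (adjusted p = 0.101). CEBPB, a transcription factor that forms dimers with ATF4, had 1.82, 0.997 and 1.24 RPKM in the D391N libraries against 2.75, 2.42 and 2.84 RPKM in the controls, with a log2 fold change of -0.97 (adjusted p = 0.131). D391N replicate 1 was the highest D391N library in CEBPB, and in DDIT4 (45.1 RPKM, controls 35.3 to 66.6) and ATF5 (3.99 RPKM, controls 3.95 to 6.92) it lay among the controls. The size of the list's median and its counts depended on the scaling: with each library centred on its median, which moved the median of all genes from -0.090 to 0.13, the list's median was -0.36 and 8 genes lay below all controls, while scaled to protein-coding RPKM these were -0.63 and 11. The median of the list was below 0 under each of these scalings, but the background of genes below all controls moved with it, from 4286 as deposited to 2384 with median centring. The filter moved the list's median too: with a mean of at least 5 RPKM it was -0.33 over 15 genes, beside -0.034 for all genes. With single libraries left out it ranged from -0.68 (without control replicate 1) to -0.45 (without control replicate 3). The targets did not all share these values: SLC7A11, PSAT1, MTHFD2 and XPOT had log2 fold changes between -0.14 and -0.056, and CARS1 had 0.12.

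Among the 8 sensors and their activating enzymes, the 3 sensors themselves overlapped between the groups, with log2 fold changes of -0.52 for ERN1 (adjusted p = 0.228), 0.35 for EIF2AK3 (adjusted p = 0.428) and -0.22 for ATF6 (adjusted p = 0.481). The D391N libraries lay below all controls for MBTPS1, the site-1 protease that cuts ATF6, at 23.4, 18.7 and 18.3 RPKM against 33.6, 31.9 and 27.9 RPKM (log2 fold change -0.63, adjusted p = 0.113), and for ATF6B, the paralog of ATF6, at 6.32, 6.28 and 5.51 RPKM against 8.14, 9.34 and 8.92 RPKM (-0.54, adjusted p = 0.129). These 2 genes alone had an unadjusted p under 0.05 in this list, and its median was -0.025. Of all genes, 20.7% lay below all controls and 16% were lower at that p. Of the 6 other eIF2α kinases and phosphatase subunits, EIF2AK2 (PKR, the kinase that senses double-stranded RNA) had 73.4, 85.3 and 68.9 RPKM in the D391N libraries against 58.3, 55.9 and 56.4 RPKM in the controls (log2 fold change 0.41, adjusted p = 0.167). PPP1CA, the catalytic subunit of the phosphatase, was below all controls, at 16.4, 12.3 and 20.4 RPKM against 27.5, 30.9 and 23.7 RPKM (-0.76, adjusted p = 0.131). Again these 2 alone had an unadjusted p under 0.05, beside 6.76% of all genes higher and 16% lower, and the median of the 6 was 0.15. Of all genes, 10.5% lay above and 20.7% below all controls.

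Of the 15 genes of ER-associated degradation, 2 were above and 3 below all controls (median log2 fold change -0.053), and 2 were higher and 2 lower at an unadjusted p under 0.05, where 10.5% and 20.7% of all genes were above and below and 6.76% and 16% were higher and lower at that p. HERPUD2, the paralog of HERPUD1, had 5.46, 3.61 and 6.88 RPKM in the D391N libraries against 9.22, 8.26 and 7.57 RPKM in the controls (log2 fold change -0.69, adjusted p = 0.186). Of the 8 apoptosis genes downstream of ER stress, 1 lay below all controls and was also the 1 with an unadjusted p under 0.05, the BH3-only gene BBC3 (PUMA), with 5.73, 1.66 and 1.62 RPKM in the D391N libraries against 7.70, 6.16 and 6.93 RPKM in the controls. Its log2 fold change of -1.43 (adjusted p = 0.160) came mostly from D391N replicates 2 and 3, and the median of the list was -0.15.

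**Figure D3:**
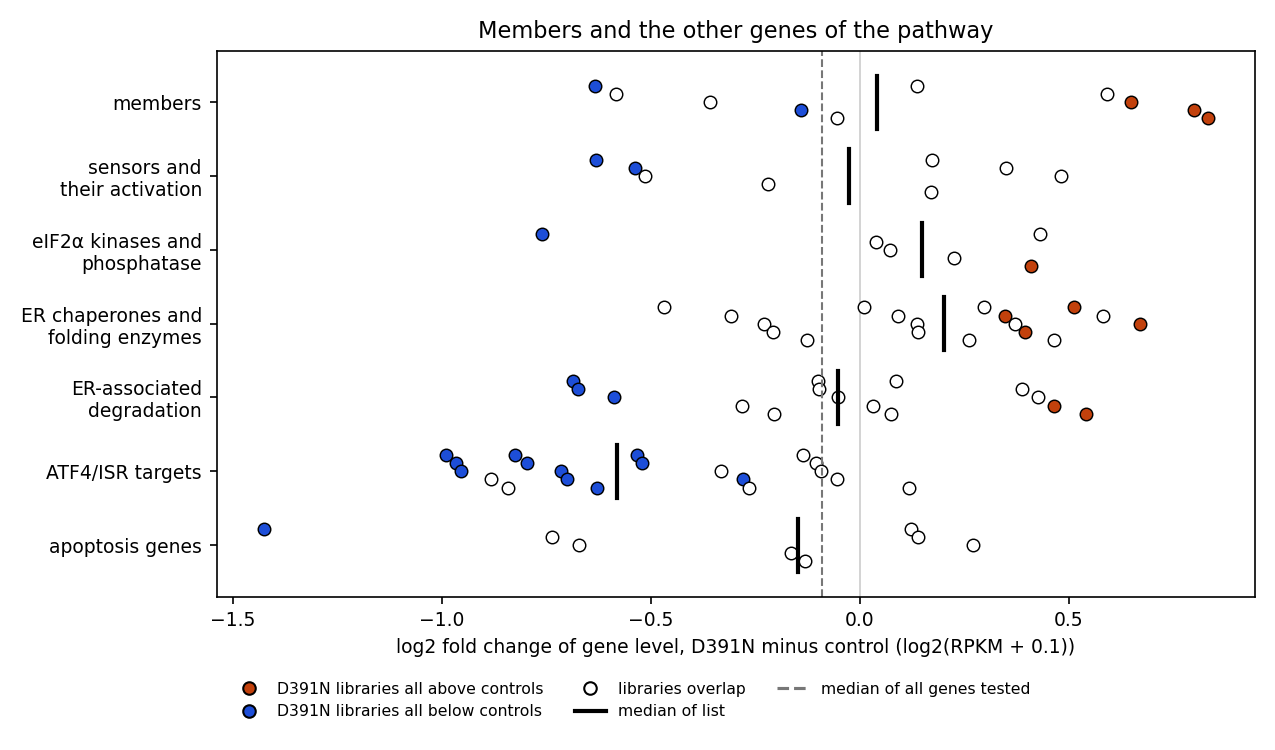
Log2 fold change of gene level (D391N minus control, on log2(RPKM + 0.1)) of each tested gene, by list; points are genes, orange where all D391N libraries lay above the controls, blue where all lay below, white where they overlapped, thick bars are list medians and the dashed line is the median of all genes tested (-0.090). The members spread to both sides, the ER chaperones have a median of 0.20 and the ATF4/ISR targets one of -0.58; no point other than DIS3L2, which is not drawn, was called.

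The genes of these lists whose pattern over the 6 libraries was nearest to that of HSPA5, by the mean absolute distance of centred log2 levels, were FAF2 (0.15), DNAJC3 (0.16) and DNAJC10 (0.18), where the median distance of the 75 candidates was 0.48. For DDIT3 the nearest were PHGDH (0.15), ERN1 (0.17) and VLDLR (0.17), with a median distance of 0.39. FAF2 is an ER-associated degradation factor, with 38.8, 52.7 and 52.6 RPKM in the D391N libraries against 32.9, 33.8 and 31.3 RPKM in the controls. PHGDH, the first enzyme of serine synthesis, had 114, 218 and 146 RPKM in the D391N libraries against 174, 182 and 229 RPKM in the controls, so that replicate 1 was lowest among the D391N libraries and replicate 3 highest among the controls, as for DDIT3.

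At the level of single transcripts, 47 of the 74 were tested and 0 were called by limma at an adjusted p under 0.05, beside 33 of 54671 in the whole table (0.0604%), while an unadjusted p under 0.05 was found for 12 of the 47, beside 17.6% of all transcripts tested. With D391N replicate 1 left out, 5 were called, beside 9.08% of all transcripts. The leading transcript, that with the highest mean, held 96.6% ± 0.294 (SD, n = 3) of ATF4 in D391N and 97.6% ± 0.467 (SD, n = 3) in the controls. For the 9 members with more than 1 transcript, the two-sided exact permutation test of its share gave p = 0.1, the smallest possible, for CALR, XBP1, ATF4 and DDIT3 and higher values for the other 5, before any correction for the 9 tests. With Benjamini-Hochberg adjustment over the 9 tests, the adjusted p of these 4 was 0.225. How often the leading share separates the groups among all genes was not computed, so these 4 have no background beside them.

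Within CALR the isoforms did not share 1 direction. ENST00000588454 had 161, 427 and 352 RPKM in the D391N libraries against 109, 134 and 86.3 RPKM in the controls, and its share of the gene was 36.1, 56.1 and 54.3% against 28.03, 33.0 and 32.7%. ENST00000316448 had 164, 136 and 202 RPKM in the D391N libraries against 233, 238 and 138 RPKM in the controls, which overlapped. The higher gene level of CALR in D391N was therefore carried by ENST00000588454 and by ENST00000586760, at 99.3, 173 and 75.4 RPKM against 28.3, 9.49 and 26.0 RPKM, 2 transcripts annotated as protein-coding. With ENST00000588454 in place of the sum, the log2 fold change of CALR was 1.42 (adjusted p = 0.176).

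In HSP90B1, the main coding transcript ENST00000299767 had 380, 565 and 544 RPKM in the D391N libraries against 380, 375 and 310 RPKM in the controls, D391N replicate 1 being level with control replicate 1. The retained-intron transcript ENST00000552051 had 86.6, 411 and 280 RPKM in the D391N libraries against 79.0, 111 and 131 RPKM in the controls, above all controls in D391N replicates 2 and 3. For XBP1, the leading share of ENST00000344347 was 43.2, 30.9 and 42.8% in D391N replicates 1 to 3 and 49.99, 43.6 and 54.2% in the controls.

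Of the 9 members with more than 1 transcript, DDIT3 differed most in its make-up. Its leading transcript ENST00000346473 had 1.01, 0.52 and 0.86 RPKM in the D391N libraries against 3.14, 2.82 and 3.99 RPKM in the controls, with a difference of -1.95 on the log2 scale (adjusted p = 0.103 by limma), and its share was 32.8, 9.35 and 18.1% against 57.9, 44.9 and 48.1%. ENST00000547526 had 0.47, 3.18 and 2.49 RPKM in the D391N libraries against 0.61, 0.99 and 1.52 RPKM in the controls. These levels are low, and the authors' posterior SD of ENST00000346473 was between 0.404 and 1.597 on the log2 scale.

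**Figure D4:**
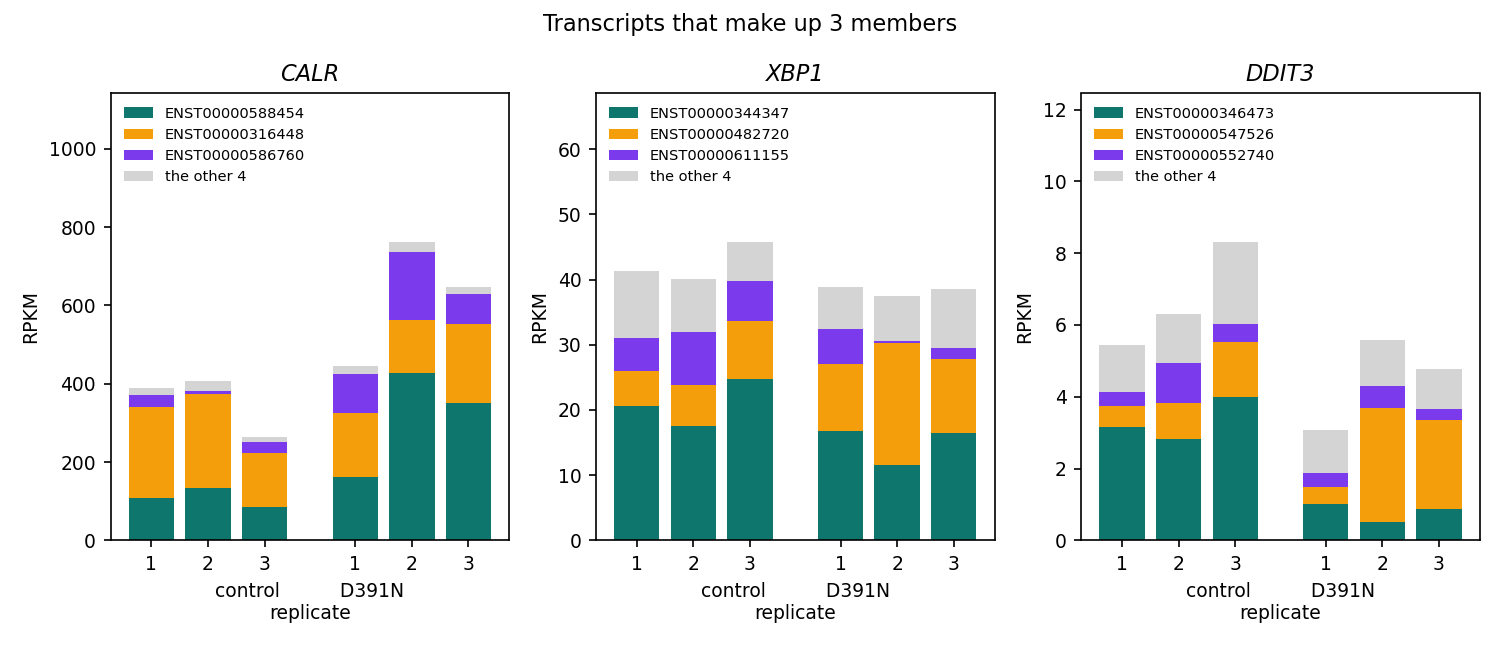
RPKM of the transcripts that make up CALR, XBP1 and DDIT3 in each library, stacked to the gene level; colours are the 3 transcripts with the highest mean and grey is the sum of the other four. In CALR, ENST00000588454 is at most 134 RPKM in the controls and between 161 and 427 RPKM in D391N, and in DDIT3 ENST00000346473 is at or below 1.01 RPKM in D391N against at least 2.82 RPKM in the controls.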

How the data were processed

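The members, lists and tests were chosen with earlier results of these data known. Per the methods, the authors depleted total RNA of ribosomal RNA, made single-end libraries, removed adapters with cutadapt, used Segemehl for alignment to Ensembl transcripts (hg38) and BitSeq for the levels; tool versions were not given in the sources used here. The deposited table gives natural log RPKM per transcript and library, as a posterior mean, with the posterior variance as another column. BitSeq shares reads among isoforms, so transcript levels are less certain than gene sums. The authors' differential test needs posterior samples and was not repeated.

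Values were exponentiated to RPKM, summed per gene and changed to log2(RPKM + 0.1), so fold changes of low genes are understated. Genes whose mean in the 6 libraries was 1 RPKM or more, 20714 in all, were tested with limma 3.58.1 (R 4.3.3; empirical Bayes with trend), with Benjamini-Hochberg adjustment over all genes tested and calls under 0.05. Transcripts were tested likewise. The scripts were tested on simulated data. Named genes were the members, DIS3L2, the 3 sensors and, per list, called genes and the 2 with the largest absolute fold change whose groups did not overlap, plus the nearest patterns to HSPA5 and DDIT3; other genes, such as SLC7A11 or KRT8, and transcripts that were not leading were named after their values were seen. A gene that this rule names is not reported here. Replicate numbers did not pair the libraries: deviations of same-numbered libraries correlated by 0.0699, 0.221 and -0.111. Promoters and positions came from RefSeq (GRCh38.p14), XBP1 transcripts from GENCODE. Alternatives covered the pseudocount, the filter, the scaling, the replicate block, single libraries left out and the sum over transcripts. Python 3.11.15, pandas 2.3.3, numpy 2.4.6, scipy 1.17.1 and matplotlib 3.10.9 were used.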

Additional observations from a re-analysis of the deposited data

How the results depend on the processing

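The calls rested on the library that stood nearest to the controls. Leaving out 1 library in turn, members called ranged from 0 to 2, member transcripts called from 0 to 5, pathway genes called from 0 to 12 and genes called in the whole table from 2 to 2267, with each highest value reached without D391N replicate 1, where HSPA5 and HSP90B1 were called; the cause was not tested. The members' median ranged from -0.091 (without D391N replicate 2) to 0.17 and was 0.26 with median centring. No member was called under any other alternative. Genes called in the whole table, 29 as reported, were 16 with a pseudocount of 0.01, 61 with 1, 6 with a mean of at least 5 RPKM, 18 without a filter, 14 with median centring, 17 with quantile normalization, 19 with only transcripts of at least 1 RPKM in the sum and 18 with the leading transcript. With the replicate block 2 genes and 0 members were called; the numbers do not pair the libraries, and it changed no other call of a member or list. The median of all genes was 0.018 with a filter of 0.1 RPKM, 0.050 without a filter, 0.13 with median centring and 0.076 with quantile normalization. ATF3 turned to 0.16 with median centring, 0.048 with transcripts of at least 1 RPKM and 0.15 with the leading transcript, and ranged from -0.15 to 0.0997 with libraries left out; XBP1 turned to 0.077 with median centring, and SEL1L ranged from -0.055 to 0.26. The leading share of HERPUD1 turned from 0.0281 to -1.20 percentage points with transcripts of at least 1 RPKM and ranged from -4.07 to 2.86 with libraries left out, that of DNAJB9 from -7.48 to 11.1 and that of SEL1L from -7.90 to 3.31. The difference in the XBP1 share without the excised stretch turned from -3.26 to 4.99 percentage points with ENST00000611155 counted with it. This and the scaling to protein-coding genes were chosen after seeing the data. Levels are without counts, so the depth that limits DDIT3 and CHAC1 is unknown.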
